A study of Mus musculus with 12 samples.

Results

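Potassium channel genes were taken as every autosomal protein-coding gene of the mouse GRCm38 annotation (GENCODE) whose symbol begins with Kcn. This gave 92 of 20807 autosomal protein-coding genes, among 55413 annotated genes of all types. Another 2 protein-coding Kcn genes lie on the X chromosome and were left out. The rule uses names and positions and no ChIP-seq value. The members span 1.90 to 1135 kb with a median of 32.2 kb, and the median autosomal protein-coding gene spans 17.6 kb.

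The study profiled acetylation of histone H4 at lysine 12 (H4K12ac) by ChIP-seq in hippocampal neurons that lack the lysine acetyltransferase *Tip60* (Kat5). The *Tip60* cKO mice carried CaMKCreERT2 and floxed *Tip60* alleles (*Tip60* f/f), and the controls were *Tip60* f/f littermates without the Cre. Both groups received tamoxifen and were taken on day 10 after the last injection. The labels give C57BL/6J males of 3 months, whereas the study's methods give a C57BL/6N background and injected mice of both sexes. The driver is active in postmitotic excitatory forebrain neurons and not in glia or progenitors, whereas the nuclei were sorted by FACS as neuronal nuclei of the whole hippocampus, so neurons outside the driver's reach can be among them. There were 5 libraries per genotype. Replicates 1 to 3 of each genotype were sequenced in lane 7 and replicates 4 and 5 in lane 8, according to the deposited file names. Fewer cells of a type and less signal per cell cannot be told apart in such bulk samples.

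Potassium channels let potassium leave the cell along its gradient and so set the resting potential, the shape of the action potential and the rate of firing. Voltage-gated channels (such as Kcna, Kcnc, Kcnd and Kcnh) open on depolarization, calcium- or sodium-activated channels (Kcnma1, Kcnn, Kcnt) follow ion entry, inward rectifiers (Kcnj) hold the membrane near rest or answer G proteins, and tandem-pore channels (Kcnk) carry the leak current. Silent subunits (Kcnf, Kcng, Kcns, Kcnv) do not form channels alone but join other voltage-gated subunits, and auxiliary subunits (Kcnab, Kcne, Kcnip, Kcnmb) alter gating and trafficking. H4K12ac is a mark of open chromatin found near the start sites and in the bodies of active genes.

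The DNA before 3 start sites is shown first, because these genes recur in the results. *Kcnn1* encodes a small-conductance calcium-activated channel and was the only member whose start-site window was called between the genotypes. *Kcnd2* (A-type channel) and *Kcnk4* (tandem-pore leak channel) ranked near the top in every library and differ in CpG content, and they were picked for that contrast after their values were seen. Sequences are the 250 bases before the RefSeq start (GRCm38.p6), 5′ to 3′ on the gene's strand, with each CG dinucleotide in capitals. They lie at chr8:70863259-70863508 on the minus strand, chr6:21215096-21215345 on the plus strand and chr19:6934516-6934765 on the minus strand.
Kcnn1: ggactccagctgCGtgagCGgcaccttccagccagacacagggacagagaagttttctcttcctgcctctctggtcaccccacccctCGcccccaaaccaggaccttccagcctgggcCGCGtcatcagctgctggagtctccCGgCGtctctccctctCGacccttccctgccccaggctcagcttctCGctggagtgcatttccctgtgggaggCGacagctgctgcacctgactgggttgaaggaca
Kcnd2: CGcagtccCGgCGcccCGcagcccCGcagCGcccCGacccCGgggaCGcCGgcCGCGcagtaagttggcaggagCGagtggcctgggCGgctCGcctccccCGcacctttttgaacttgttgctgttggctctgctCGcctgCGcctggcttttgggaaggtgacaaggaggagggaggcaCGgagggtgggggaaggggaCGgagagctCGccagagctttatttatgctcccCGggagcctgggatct
Kcnk4: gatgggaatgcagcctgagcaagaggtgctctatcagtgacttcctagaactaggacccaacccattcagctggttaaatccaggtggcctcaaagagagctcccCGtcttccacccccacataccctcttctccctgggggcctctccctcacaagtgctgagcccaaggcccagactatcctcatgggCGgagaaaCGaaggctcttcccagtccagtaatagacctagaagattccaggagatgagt
These stretches hold 10, 22 and 3 CG dinucleotides for *Kcnn1*, *Kcnd2* and *Kcnk4*, respectively.

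The 4 stretches that follow are the 201-base centres of 4 peak regions, all on the plus strand with CG in capitals. They lie at chr12:98457349-98457549 in an intron of *Kcnk10*, chr14:23792878-23793078 in an intron of *Kcnma1*, chr14:23803607-23803807 just upstream of an internal transcript start of *Kcnma1*, and chr8:70865151-70865351 about 2 kb before the 5′ end of *Kcnn1*. The first 3 had the smallest p among member regions, and the last, which was not called as a region, is shown because it holds the strongest peak of the *Kcnn1* window. *Kcnk10* encodes a tandem-pore leak channel and *Kcnma1* the large-conductance calcium-activated (BK) channel.
Kcnk10 intron, peaks in control only: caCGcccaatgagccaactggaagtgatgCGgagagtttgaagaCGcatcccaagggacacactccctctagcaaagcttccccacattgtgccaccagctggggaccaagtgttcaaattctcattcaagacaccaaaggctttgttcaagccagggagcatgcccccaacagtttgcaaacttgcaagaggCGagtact
Kcnma1 intron, peaks in control only: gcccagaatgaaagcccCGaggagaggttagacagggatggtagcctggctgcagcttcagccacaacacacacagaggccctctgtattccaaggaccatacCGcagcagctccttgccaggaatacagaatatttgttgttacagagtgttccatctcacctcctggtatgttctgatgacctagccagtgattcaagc
Kcnma1 internal start, peaks in cKO only: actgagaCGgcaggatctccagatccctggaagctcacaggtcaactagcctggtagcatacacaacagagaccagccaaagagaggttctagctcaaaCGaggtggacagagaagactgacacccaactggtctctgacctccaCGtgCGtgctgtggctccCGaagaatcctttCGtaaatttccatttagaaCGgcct
Kcnn1 upstream, peaks in both genotypes: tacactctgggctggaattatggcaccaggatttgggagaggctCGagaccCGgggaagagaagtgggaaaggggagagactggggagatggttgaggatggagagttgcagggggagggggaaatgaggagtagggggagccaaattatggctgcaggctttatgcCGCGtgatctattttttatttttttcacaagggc
The centre of a member region held TGACTCA on either strand in 3.95% of 1416 regions and CAGATG in 17.4%. The shares over all 144701 regions were 3.79% and 18%. None of these 4 centres holds either of them.

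The 10 libraries had 22864189 (*Tip60* cKO 5) to 37923809 (control 5) tags and 64245 to 136409 peaks, again with *Tip60* cKO 5 lowest and control 5 highest. The start sites of all 8 neuronal marker genes carried a peak in all 10 lists. Of 12 glial and vascular markers 9 carried none, and the exceptions were *Gfap* (9 lists), *P2ry12* (5 lists, 1 cKO and 4 control) and *Cldn5* (1 cKO list). Mean coverage of the glial and vascular start sites by peaks ran from 0.133 to 1.83% in *Tip60* cKO and from 1.13 to 2.56% in control. Each genotype was called against a single pooled input of its own, so a difference in fold enrichment that comes from the input and a difference that comes from the genotype cannot be told apart. Rankings by pileup, the tag depth at the peak, leave the input out of a peak's height and are given beside the results, but whether a peak is listed at all still depends on the input.

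H4K12ac at the 5′ end of a gene was scored as a TSS rank score. For each annotated gene the strongest peak by fold enrichment within 2 kb on either side of the 5′ end was ranked against those of the other genes of the same library, from 0 (no peak) to 100. Of the 92 members, 55 (59.8%) had a peak there in all 10 lists, 16 in 1 to 9 lists and 21 (22.8%) in none. The shares over autosomal protein-coding genes were 46.2% in all lists and 32.8% in none. The number of members with a peak was 64, 65, 63, 65 and 63 in the *Tip60* cKO libraries and 65, 64, 66, 65 and 62 in the control libraries. The groups overlapped fully, and their means differed by 0.4 members of 92 with SDs of 1 and 1.52. The heatmap of start-site rank scores shows the same genes marked in nearly every library.

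**Figure D1:**
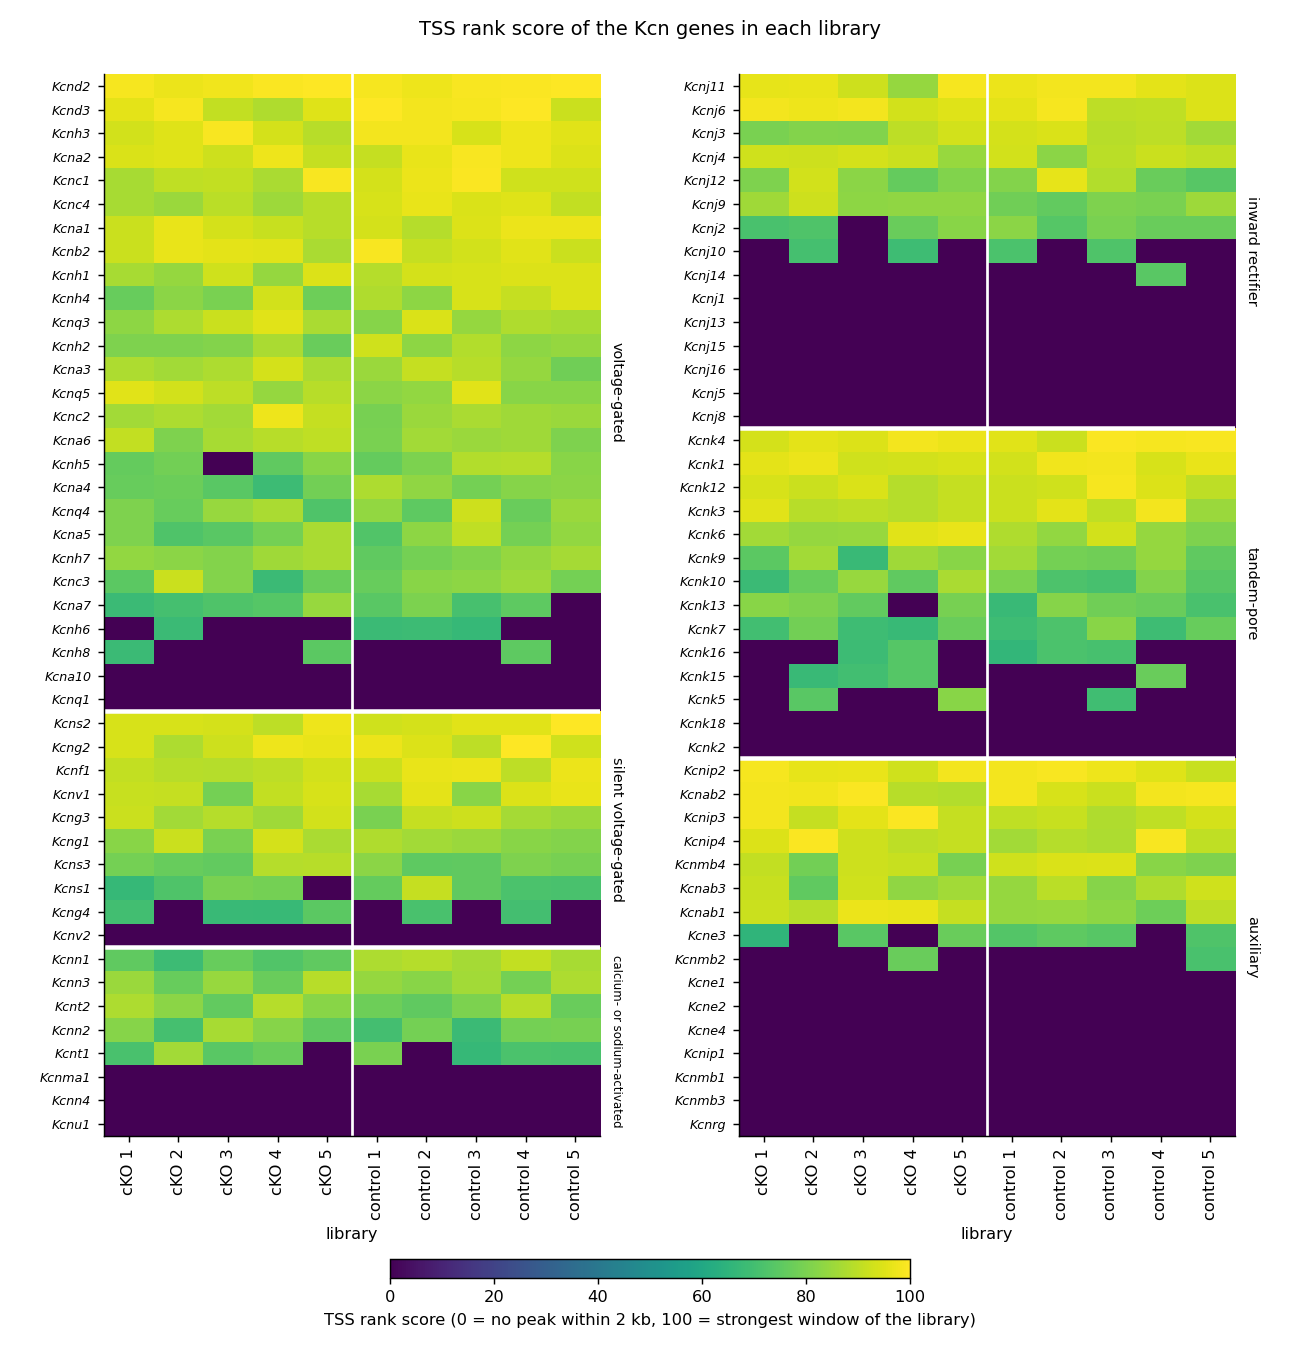
TSS rank score (percent rank within a library, colour scale) of 90 of the 92 potassium channel genes, one row a gene grouped by channel class, in the 5 *Tip60* cKO and 5 control libraries as columns. Most rows are either marked in all 10 libraries (55 of the 92 genes) or in none (21 of the 92).

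The classes differed in how many members were marked. Among voltage-gated genes 23 of 29 had a start-site peak in all 10 lists and 2 had none, *Kcna10* and *Kcnq1*. All members of the Kcnc (4 of 4) and Kcnd (2 of 2) groups, known for fast-spiking and A-type currents of neurons, were marked in every list, with 6 of 8 in Kcna and 5 of 8 in Kcnh. Of the silent subunits 7 of 10 were marked in all lists and of the tandem-pore channels 8 of 14. The calcium- or sodium-activated group, in which *Kcnu1* was counted here and in the class values below, had 4 of 8 and the inward rectifiers 6 of 15. Among auxiliary genes, with *Kcnrg* counted, 7 of 16 were marked in all lists. These were split by subfamily, with all 3 Kcnab (beta subunits of Kcna channels) and 3 of 4 Kcnip (Kcnd partners) marked but none of 4 Kcne genes, whose products are best known from heart and epithelia. Other protein-coding genes start within 4 kb of *Kcnab2* (*Nphp4*) and *Kcnab3* (*Cntrob* and *Trappc1*), so peaks of these windows can belong to them. These counts are descriptions and no test was run between classes.

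A list of 30 channel genes known from hippocampal neurons had 27 marked in all lists. The 3 others were *Kcnt1* with 8 lists, and *Kcnma1* and *Kcnk2* with none at the annotated 5′ end. A list of 18 channel genes best known from muscle, epithelia, glia or sensory cells had 1 member marked in all lists, *Kcna5*, and 12 in none. *Kcna5* scored 80.7, 72.5, 74.3, 79.1 and 87.2 in *Tip60* cKO and 73.0, 82.9, 90.4, 79.0 and 83.7 in control. Both lists were drawn up with earlier results of these data known, so these counts are a description. The astrocytic inward rectifier *Kcnj10* had a peak in 2 lists of each genotype.

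The 21 genes without a peak at the 5′ end were *Kcna10*, *Kcne1*, *Kcne2*, *Kcne4*, *Kcnip1*, *Kcnj1*, *Kcnj5*, *Kcnj8*, *Kcnj13*, *Kcnj15*, *Kcnj16*, *Kcnk2*, *Kcnk18*, *Kcnma1*, *Kcnmb1*, *Kcnmb3*, *Kcnn4*, *Kcnq1*, *Kcnrg*, *Kcnu1* and *Kcnv2*. They include channels of kidney (*Kcnj1*), heart (*Kcne1*, *Kcnq1*), vascular muscle (*Kcnj8*, *Kcnmb1*) and photoreceptors (*Kcnv2*). For 4 of them another annotated transcript start was marked in all 10 lists. These starts lay 9.63 kb from the 5′ end in *Kcnma1*, 58.1 kb in *Kcnk2*, 149.6 kb in *Kcnip1* and 62.1 kb in *Kcnu1*. With any annotated start counted, 75 members had a peak, 61 of them in all lists, and 17 had none.

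RefSeq start-site sequences matched 68 members by symbol, 63 of them with a start within 2 kb of the 5′ end used here. The median number of CG dinucleotides in the 300 bases around the start was 17.5 in 34 genes marked in all lists, 17.5 in 14 genes marked in some, and 6 in 15 genes marked in none. The median over 27025 genes was 7. GGGCGG on either strand, the core of a GC box, was present in 58.8%, 57.1% and 20% of these groups and in 35.9% of all genes. TATAAA on either strand was present in 2.94%, 0% and 13.3% and in 14.2% of all genes. CpG number did not order the genes fully, since *Kcnk4* ranked at 97.0 in control with 5 CG dinucleotides in its 300 bases.

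Among the highest start-site scores in control were those of *Kcnd2* (mean 98.8), *Kcnd3* (97.8), *Kcnk4* (97.0) and *Kcnj11* (96.9). Their products carry A-type current (*Kcnd2*, *Kcnd3*), leak current (*Kcnk4*) and ATP-sensitive current (*Kcnj11*). Neighbours among these 4 did not differ beyond their spread, with SDs from 0.809 for *Kcnd2* to 3.23 for *Kcnd3*. *Kcnd2* scored 98.7, 97.2, 98.0, 99.4 and 99.8 in *Tip60* cKO and 98.5, 97.6, 98.8, 99.3 and 99.7 in control. The 2 groups overlapped. At the other end *Kcnk5*, *Kcnmb2*, *Kcnj14*, *Kcnh8*, *Kcnk15* and *Kcng4* had peaks in 1 to 6 lists, and each scored 0 in at least 3 control libraries.

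The first comparison asked whether start-site H4K12ac of potassium channel genes differed between *Tip60* cKO and control. Windows with a peak in at least 2 lists were compared with limma on the rank scores, with Benjamini-Hochberg adjustment over 21672 windows. Of 70 members tested, 1 was called at an adjusted p below 0.05, *Kcnn1*, which was lower in *Tip60* cKO. Over all tested windows 0.235% were called, 0.157% lower and 0.0784% higher. At an unadjusted p below 0.05, 3 members were lower and 1 was higher, against 6.68% and 5.1% of all tested windows (11.8% together). The genotypes did not overlap in 3 members, all lower, against 3.55% of all windows, 1.62% lower and 1.93% higher. No member had its peak in at least 4 more lists of one genotype than of the other, which held for 1.25% of all windows (0.955% lower, 0.291% higher). The members' median difference was -1.27 rank points, with 60% lower, and the median over tested autosomal protein-coding genes was -0.632, with 55.6% lower.

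*Kcnn1* (chr8:70842049-70863258, minus strand) encodes SK1, which opens on calcium entry and slows firing after a spike. Its start-site score was 75.6, 68.6, 76.8, 72.9 and 75.6 in *Tip60* cKO. In control it was 87.7, 88.9, 86.6, 90.6 and 87.0. Every control library lay above every cKO library. The difference was -14.3 ± 2.02 (SE, n = 5 per genotype), with a limma adjusted p of 0.0250. It was -14.1 within lane 7 and -14.6 within lane 8, but with lane as a covariate it was no longer called (adjusted p = 0.0570). The strongest peak stood 3.02- to 4.01-fold over local background in *Tip60* cKO and 5.93- to 6.46-fold in control. The share of the window covered by peaks was not lower in *Tip60* cKO. It was 18.6% ± 8.07 in *Tip60* cKO and 15.7% ± 5.69 in control (SD), and the groups overlapped.

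That peak lay not at the start but in a region 2 kb upstream (chr8:70864716-70865786), whose centre is printed above and which also overlaps *A230052G05Rik*, annotated as TEC on the other strand. The median summit of the region, at 70865611, is beyond the 2 kb window, which thus takes in only part of the peak. The region's rank among all regions was 80.0, 56.7, 80.1, 74.9 and 78.3 in *Tip60* cKO and 95.0, 95.7, 94.4, 96.4 and 94.1 in control. It was not called in the region fit of limma (difference -21.1 ± 6.20, adjusted p = 0.211). Under a mean-dependent robust prior it was called (adjusted p = 0.0266). The region over the start itself (chr8:70862850-70863658) had peaks in 4 cKO and 3 control lists. With a 1 kb window, which leaves out the upstream region, the difference was 15.1 with an adjusted p of 0.801. With any annotated start it was 3.02 (adjusted p = 0.702), and a region at internal starts of *Kcnn1* (chr8:70854612-70857696) was marked in all 10 lists.

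The local background under the *Kcnn1* peak, relative to the genome-wide level, was 1.41 in *Tip60* cKO and 1.11 in control. The ratio of 1.26 was the highest among 55 members with a peak in all lists, whose median ratio was 1. Ranked by pileup, *Kcnn1* scored 85.7, 80.4, 78.0, 73.7 and 85.5 in *Tip60* cKO and 85.3, 90.8, 85.8, 88.8 and 91.0 in control. The groups then overlapped, and the difference was -7.67 ± 2.73 (limma adjusted p = 0.502). The call was also lost when control replicate 1, 2, 3, 4 or 5 or *Tip60* cKO replicate 4 was left out, with adjusted p from 0.0531 to 0.0778.

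**Figure D2:**
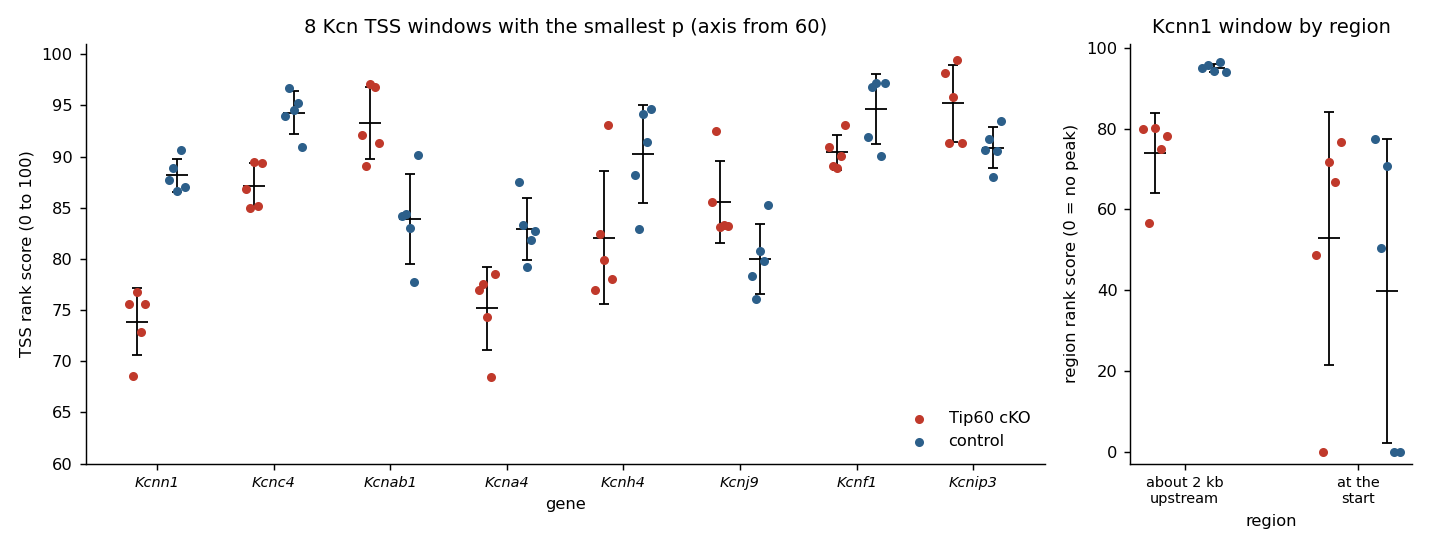
Left, TSS rank score (percent rank, axis from 60) by library for the 8 members with the smallest p in the start-site fit, and right, region rank score of the upstream and the start region of the *Kcnn1* window (0 for no peak). Points are libraries, coloured by genotype, lines are mean ± SD, and on the left *Kcnn1* (called) and *Kcnc4* and *Kcna4* (not called) have no overlap between genotypes.

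None of the next members in order of p was called. *Kcnc4*, a fast-activating voltage-gated channel, scored 86.8, 84.9, 89.5, 85.2 and 89.4 in *Tip60* cKO and 94.0, 96.7, 94.5, 95.2 and 91.0 in control. The groups did not overlap, and the difference was -7.11 ± 1.83 (limma adjusted p = 0.146). Ranked by pileup they overlapped, and it was -3.80 ± 1.96 (adjusted p = 0.613). *Kcna4*, an A-type channel of axons, scored 76.9, 77.5, 74.3, 68.4 and 78.6 against 87.6, 83.3, 79.2, 81.8 and 82.7. These groups did not overlap either (-7.77 ± 2.5, adjusted p = 0.288), but the difference was 0.168 when ranked by pileup. *Kcnab1*, a beta subunit that speeds inactivation of Kcna channels, scored 92.1, 89.1, 97.1, 96.8 and 91.3 against 84.2, 84.4, 83.0, 77.8 and 90.1. The cKO libraries were mostly higher, with 1 control library inside their range (9.35 ± 2.70, adjusted p = 0.208). Ranked by pileup the difference was 0.795, and the local background was 1 in *Tip60* cKO and 1.47 in control, the lowest ratio of the 55 members. The part of the input in these differences was not tested.

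The 4 others had unadjusted p from 0.0509 to 0.0826. *Kcnh4* (ether-a-go-go family), whose window also lies near the *Hcrt* start, differed by -8.16 and *Kcnf1* (silent subunit) by -4.23. *Kcnj9* (GIRK channel subunit) differed by 5.53 and *Kcnip3* (Kcnd partner and calcium sensor) by 4.33. The sign of *Kcnh4* and *Kcnj9* was opposite when ranked by pileup (2.29 and -1.39). The 18 partner genes outside the Kcn symbols, such as the Kcna-associated *Lgi1*, *Adam22* and *Cntnap2*, were marked in all lists in 10 cases and in none in 4. Of 14 tested with limma 0 were called, and 1 had an unadjusted p below 0.05, *Gnb5* (2 cKO and 5 control lists).

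Coverage by peaks was a second start-site measure. Peaks covered on average 26.8, 22.0, 23.2, 21.4 and 16.1% of the 4 kb windows of the 92 members in *Tip60* cKO. In control they covered 27.6, 29, 26.6, 23.1 and 28.1%. The means were 21.9% ± 3.87 and 26.9% ± 2.30 (SD, n = 5), a relative difference of -18.5%. Over all autosomal protein-coding genes the means were 13.1% ± 2.72 and 16.6% ± 1.64, a relative difference of -21.1%. The groups overlapped for both, and *Tip60* cKO 5, with the fewest tags and peaks, was lowest. Without it the members' difference was -3.52 percentage points in place of -4.98. Depth and the number of peaks move with this measure, and their part in it was not tested.

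Coverage was lower in *Tip60* cKO in 62 of 70 members (88.6%, median -6.12 percentage points) and in 84.5% of tested protein-coding genes (median -4.71). By class, mean coverage in *Tip60* cKO and control was 30.3 and 37.5% in voltage-gated genes, 24.8 and 32.5% in silent subunits, and 12.3 and 13.3% in calcium- or sodium-activated genes. It was 17.5 and 21.3% in inward rectifiers, 17.0 and 20.3% in tandem-pore channels, and 18.1 and 21.9% in auxiliary genes. All 6 classes thus had the lower mean in *Tip60* cKO, as all protein-coding genes did. On the scale of log2 fold enrichment over the library median, 57 of 70 members (81.4%) were lower, with a median of -0.16. Over tested protein-coding genes 78.2% were lower, with a median of -0.13. An unadjusted p below 0.05 was found for 16 members lower and 0 higher, against 16.6% and 2.05% of all windows.

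**Figure D3:**
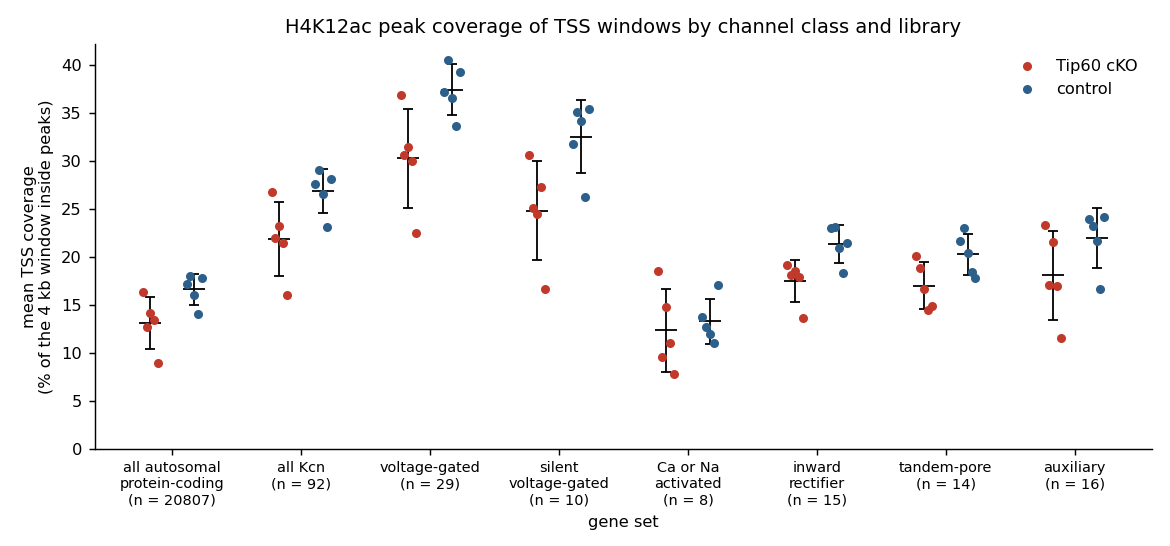
Mean percent of the 4 kb start-site window covered by peaks, by library (points) with the genotype mean ± SD (lines), for all autosomal protein-coding genes, all potassium channel genes and the 6 channel classes. The *Tip60* cKO mean is below the control mean in each set, for example 21.9% and 26.9% for all Kcn genes, and single libraries of the genotypes overlap.

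The next comparison concerned gene bodies, taken from 2 kb past the 5′ end to the gene end in genes over 4 kb. Mean body coverage of 88 members was 9.69, 7.63, 9.09, 6.91 and 4.24% in *Tip60* cKO and 9.84, 10.6, 9.49, 6.05 and 10.5% in control. The groups overlapped. The means were 7.51% ± 2.14 and 9.29% ± 1.87, and all protein-coding genes had 3.24% ± 1.11 and 3.98% ± 0.797. The members' difference of -1.78 percentage points was -0.960 without *Tip60* cKO 5 and -2.59 without control 4. Of 66 member bodies tested with limma on percent ranks of coverage, 0 were called, against 0.203% of 12823 tested bodies (0.172% lower and 0.0312% higher). At an unadjusted p below 0.05, 4 were lower and 2 were higher, against 6.09% and 5.04% of all bodies (11.1% together). Members were lower in 47.0% of cases and all tested bodies in 51.3%.

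*Kcnh2*, an ERG-type voltage-gated channel, was the only member tested whose body ranks did not overlap between genotypes, against 3.79% of all bodies (1.96% lower and 1.83% higher). They were 81.8, 84.2, 86.2, 87.1 and 82.4 in *Tip60* cKO and 73.6, 76.8, 78.9, 75.2 and 76.9 in control, a difference of 8.04 ± 1.46 (limma adjusted p = 0.134). The sodium-activated channel *Kcnt1* differed by 4.28 (adjusted p = 0.387). *Kcnj14*, an inward rectifier, differed by -5.42 and *Kcnk12*, a tandem-pore gene, by -2.24 (both adjusted p = 0.387). *Kcnd3* and *Kcnn2* differed by 1.72 and 2.73 with adjusted p of 0.470 and 0.514.

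The other 2 with small p had no peak in some libraries. The auxiliary gene *Kcne3* scored 85.8, 0, 77.5, 0 and 0 in *Tip60* cKO and 83.0, 82.7, 75.5, 81.8 and 86.6 in control (adjusted p = 0.387). *Kcnk13*, a tandem-pore channel known from microglia, scored 61.3, 0, 0, 0 and 0 and 0, 63.7, 66.0, 64.5 and 65.8 (adjusted p = 0.438). The body peaks of *Kcnk13* were in 1 cKO and 4 control lists. It passed the filter of 2 lists only through control, where it was high, and so had to differ. Its p, counted among the 4 lower bodies above, supports no difference in H4K12ac. Of 5 microglial markers, *P2ry12* had a start-site peak in 1 cKO and 4 control lists, and *Cx3cr1*, *Aif1*, *Csf1r* and *Tmem119* had none. The body ranks of 4 of them differed by -0.525 (*P2ry12*), 1.53 (*Cx3cr1*), -16.6 (*Aif1*) and 16.4 (*Csf1r*), none called by limma, with unadjusted p from 0.134 to 0.845. The part of other cells in this difference was not tested.

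To see where in a gene the lists differed, peaks of the 10 lists were merged, and the 144701 merged regions found in 2 or more lists were kept. The members held 1416 of them, 1145 in introns, 241 over exons and 30 outside the gene. Of these, 206 (14.5%) were present in all 10 lists, and 16.4% of all regions were. *Kcnma1* held the most, 222 regions, followed by *Kcnj6* (116), *Kcnh1* (100), *Kcnd3* (87), *Kcnq3* (82) and *Kcnab1* (63). *Kcnj6* encodes a GIRK subunit, *Kcnh1* an ether-a-go-go channel and *Kcnq3* an M-channel subunit. All 6 are long genes.

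With limma on region ranks 6 member regions were called, 3 lower and 3 higher in *Tip60* cKO. That is 0.424% of the member regions, against 0.561% of all regions, of which 0.475% were lower and 0.0864% higher. At an unadjusted p below 0.05, 108 were lower and 59 were higher, against 8.34% and 3.68% of all regions. Together these were 11.8% of member regions and 12% of all. Groups did not overlap in 10 lower and 19 higher regions, against 1.34% and 0.783% (2.12% together). A peak in at least 4 more lists of one genotype was found in 29 lower and 11 higher regions, against 2.27% and 0.498% (2.77% together). In all, 53.6% of member regions and 56.9% of all regions were lower. The 5 called regions described here lay in *Kcnma1* and *Kcnk10*, and none was in a window around a gene's 5′ end. Each of the 5 had a peak in all 5 lists of one genotype and in 0 or 1 list of the other, so it passed the filter of 2 lists only through the genotype where it was high and had to differ. Most values of the low genotype are zeros set by peak calling, with no spread where no list had a peak, so the p of these regions describe the lists and support no difference in H4K12ac.

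In *Kcnk10* a region in an intron (chr12:98457167-98457731) had no peak in any cKO list and ranked 64.3, 66.5, 62.5, 71.7 and 61.2 in control. It was called lower with an adjusted p of 0.000290. A second intronic region of *Kcnk10* (chr12:98479344-98480006) had the opposite pattern, with ranks of 48.8, 80.3, 68.3, 57.5 and 76.8 in *Tip60* cKO and a peak in control 2 only, at 41.8. It was called higher (58.0 ± 10.3, adjusted p = 0.0436). With lane as a covariate its adjusted p was 0.0749, and leaving out single libraries it stayed called only without *Tip60* cKO 1 or without control 2.

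**Figure D4:**
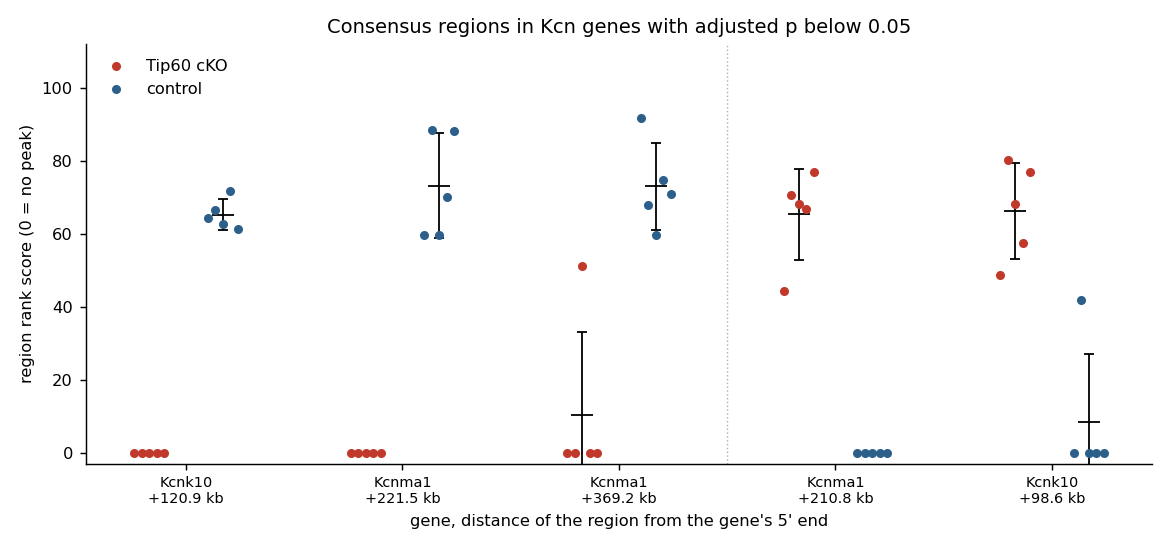
Region rank score (percent rank among all consensus regions, 0 for no peak) by library for the 5 called regions of *Kcnk10* and *Kcnma1*. Points are libraries, coloured by genotype, lines are mean ± SD, x labels give the distance from the gene's 5′ end, and in 3 regions only libraries of a single genotype have a peak.

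In *Kcnma1* 3 regions were called. The first (chr14:23792706-23793250) had no peak in *Tip60* cKO and ranked 59.7, 88.4, 59.7, 70.0 and 88.1 in control (adjusted p = 0.000923). The second (chr14:23803256-23804158) ranked 44.2, 70.6, 68.3, 66.7 and 76.8 in *Tip60* cKO and had no peak in control (adjusted p = 0.00110). Its centre is 403 bases from the start of a protein-coding transcript and 210784 bases inside the gene's 5′ end. It was not called with only peaks of q below 0.01 (adjusted p = 0.136) or when ranking only regions with a peak (0.129), and the latter also ended the call of the first (0.112). The third (chr14:23644972-23645598) had a peak in cKO 3, at 51.2, and ranked 91.8, 67.8, 59.7, 74.7 and 70.9 in control (-62.8 ± 11.4, adjusted p = 0.0480). With lane as a covariate its adjusted p was 0.0773, and leaving out single libraries it stayed called only without *Tip60* cKO 3.

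Regions beside the called ones of *Kcnma1* varied. The region just before the first (chr14:23791153-23792551) was marked in all 10 lists, with means of 82.7 in *Tip60* cKO and 72.5 in control. Of the regions on either side of the second, one (chr14:23802758-23803165) had peaks in 2 cKO lists and no control list and the other (chr14:23805075-23805815) had peaks in 4 cKO and 5 control lists. Over the whole gene 97 of 222 regions were lower and 125 were higher, and at an unadjusted p below 0.05 there were 15 and 14. Over all regions 56.9% were lower, and 8.34% were lower and 3.68% higher at that p. Regions of a gene share their libraries and are not replicates.

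**Figure D5:**
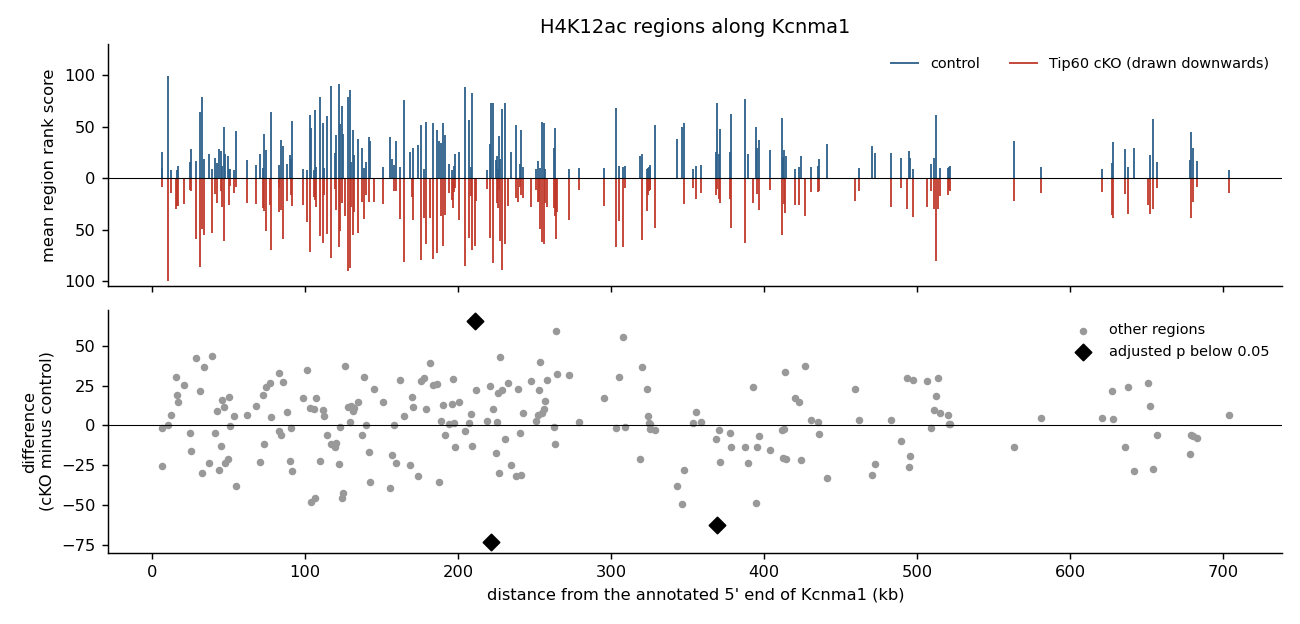
The 222 *Kcnma1* regions against distance from the gene's 5′ end in kb, with the mean region rank score above (control upwards, *Tip60* cKO downwards) and the difference, *Tip60* cKO minus control in rank points, below. The 3 called regions are black diamonds, and regions above and below 0 are found along the whole gene (125 and 97).

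Ranking by pileup cannot separate the input from the genotype in these regions, since their zeros come from peaks called against the input. The part of the input in the called regions was not tested. The other named regions, none of them called in the region fit above, lay in introns of *Kcnh1*, *Kcnj6*, *Kcnd3*, *Kcnma1* and *Kcnab1*. In *Kcnh1* (chr1:192295146-192296570) peaks were in 5 cKO and 2 control lists with backgrounds of 1.08 and 1.69. In *Kcnj6* (chr16:94935671-94936341) they were in 1 and 5 lists with 2.63 and 1.18. In *Kcnd3* (chr3:105481664-105482592) they were in 5 and 1 lists with 1.02 and 2.09. In the other *Kcnd3* region (chr3:105508191-105508958) they were in 5 and 1 lists with 1.22 and 1.66. In *Kcnma1* (chr14:23706551-23707440) they were in 5 and 1 lists with 1.16 and 1.23. In *Kcnab1* (chr3:65272101-65272982) they were in 1 and 5 lists with a background of 1 in both. The background of the genotype with fewer peaks rests on 1 or 2 peaks in these regions. Except for that of *Kcnh1*, these regions had a peak in only 1 list of a genotype. They passed the filter of 2 lists only through the genotype where they were high and had to differ. Each of the 6 was called under 1 to 4 of 21 alternatives. With all 10 libraries kept, *Kcnh1* was called with the same number of peaks per library (limma adjusted p = 6.46e-06). It was also called with a peak in at least 5 lists (0.0415) and among regions with a peak (0.0492). *Kcnj6* was called with only peaks of q below 0.01 (0.00134). Other alternatives that gave calls included leaving out a library that holds a peak of the genotype with fewer peaks. Where that peak is the only one, leaving it out sets zeros against peaks, and such calls support no difference in H4K12ac. The part of the input in these regions was not tested.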

How the data were processed

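H4K12ac ChIP-seq peak lists of 5 *Tip60* cKO and 5 control libraries were used as deposited, 1 list per library. Per the file headers and the study's methods, the authors aligned reads to mm10 (GRCm38), removed duplicates with samtools and called peaks with MACS 2.1.0.20140616 at q below 0.1 against a pooled input of each genotype. As deposited, the pileup is a signal giving tag depth, the enrichment is the ratio (fold) of this depth over a local background, and p and q are −log10 values. The lists hold no reads, so the authors' test on reads (DiffBind with DESeq2) was not repeated.

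Genes came from GENCODE vM21. Strongest peaks and covered shares were ranked within a library and compared with limma 3.58.1 (R 4.3.3), genotype alone, with Benjamini-Hochberg adjustment over all features with a peak in at least 2 lists and a threshold of 0.05. Adjusted and unadjusted p in the text come from these fits. The sources used here do not say whether each library came from a separate animal, so p-values measure only the spread between these samples, which may be technical. Local background was recovered from pileup and fold enrichment and expressed relative to the genome-wide level. Genes named are the called ones, the 8 with the smallest p per fit, the 6 highest and 6 lowest in control, those with no peak, and the 6 with the most regions, plus the 12 regions with the smallest p. Counts cover all members, but the values of some are not reported here. The members and gene lists were chosen with earlier results of these data known. Depth is in the report, and the alternatives tried are in the closing section.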

Additional observations from a re-analysis of the deposited data

Results flagged for a closer look

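Within each genotype, 84 groups of 5 libraries were examined for a library far from the other 4 (the members' summary values and every gene and region named by value), and 20 had one. Chance flags about 1 in 20 groups, and a single peak among 4 zeros always passes this check. Explanations were not weighed.

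Mean body coverage of the members was 6.05% in control 4, the lowest of the controls. At start sites *Kcnj9* scored 92.5 in *Tip60* cKO 2, above the other cKO libraries. *Kcnd3* scored 92.2 in control 5, below the other controls. The *Kcnn1* upstream region ranked 56.7 in *Tip60* cKO 2, below the other cKO libraries.

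The rest were lone peaks or lone zeros. Lone start-site peaks in control were those of *Kcnk5* (69.3), *Kcnmb2* (71.1), *Kcnj14* (74.4), *Kcnh8* (75.3) and *Kcnk15* (77.2), and in *Tip60* cKO that of *Kcnmb2* (77.3). *Kcng4* scored 0 in *Tip60* cKO 2 alone. The *Kcnk13* body scored 61.3 in *Tip60* cKO 1 alone and 0 in control 1 alone. Lone peaks in regions were, in control, *Kcnk10* (41.8), *Kcnd3* at 105508191 (49.7) and at 105481664 (73.8) and *Kcnma1* at 23706551 (55.6), and in *Tip60* cKO, *Kcnma1* at 23644972 (51.2), *Kcnj6* (53.3) and *Kcnab1* (64.8).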

How the results depend on the processing

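The single member called at start sites (*Kcnn1*) became 0 with any annotated start, lane 7 or lane 8 alone, lane as a covariate, ranking by pileup, the same number of peaks per library, a 1 kb window, and presence in at least 4 more lists. It became 2 (with *Kcnc4*) when ranking only windows with a peak, and 0 to 1 leaving out each library. Gene bodies called went from 0 to 4 in lane 8 alone and stayed 0 leaving out each library. The 4 were *Kcnn4*, *Kcne3*, *Kcnj12* and *Kcnk13*. In each, both lane 8 libraries of a genotype had no body peak and both of the other had a peak. These calls set zeros against peaks and support no difference in H4K12ac. Regions called went from 6 to 36 (lane 7), 0 (lane 8), 3 (log2 fold enrichment or pileup, the regions with peaks in a single genotype) and 40 (presence). The share of all regions called in lane 7 alone is not reported here, so the 36 are not a result about the members. Some of the 36 set zeros against peaks, such as *Kcnk10* at 98457167, and such calls support no difference in H4K12ac. With the same number of peaks 3 other regions were called (in *Kcnh1*, *Kcnd3* and *Kcnc1*), and with the robust prior 1 other (*Kcnn1* at 70864716), and in neither was any of the 6. With only peaks of q below 0.01, 4 of the 6 were called along with 2 others (in *Kcnj6* and *Kcnc1*), and when ranking only regions with a peak 2 of the 6 (*Kcnk10* at 98457167 and *Kcnma1* at 23644972) along with 4 others. With a peak in at least 5 lists 8 were called, the 6 and 2 others (in *Kcnh1* and *Kcnj6*). Regions called ran from 4 to 10 leaving out each library (4 without *Tip60* cKO 2, 10 without control 4). The difference in members with a peak moved from -0.4 to -2.6 with the same number of peaks, and was -1 to 0 leaving out each library. Leaving out each library, coverage differences ran from -6.21 to -3.52 at start sites and -2.59 to -0.960 in bodies. Which cause lies behind these shifts was not tested.

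Signs turned for *Kcnn1* (3.02 with any start, 15.1 in 1 kb), for *Kcna4*, *Kcnh4* and *Kcnj9* by pileup (0.168, 2.29, -1.39), for bodies by strongest peak of *Kcnk12* (3.60), *Kcnd3* (-0.750) and *Kcnn2* (-1.63), and for the *Kcnn1* start region (-26.0 in lane 7, -2.75 among regions with a peak). The labels tie same-numbered libraries to no shared source, and deviations of same-numbered libraries correlated at -0.0375 to 0.0552. At start sites the best-matching control had the same number for *Tip60* cKO 1, 2 and 4 but not 3 and 5. In regions it did for *Tip60* cKO 4 only. These values cannot settle whether the numbers pair the libraries. With a replicate block 0 start sites, 0 bodies and 1 region (*Kcnk10* at 98457167) were called.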

Other observations

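The share of a gene's consensus regions that were lower in *Tip60* cKO varied among members with at least 20 regions. It was 83.3% in *Kcnc1* (20 of 24), 82.1% in *Kcnk2* (23 of 28), and 81.0% in both *Kcnk12* and *Kcnmb4* (17 of 21 each). It was 34.5% in *Kcnd3* (30 of 87) and 43.7% in *Kcnma1* (97 of 222). The share over all consensus regions was 56.9%. These genes were picked after their values were seen, regions of a gene are not independent, and no test was run.

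*Kcnq1*, a cardiac and epithelial channel with no peak at its 5′ end, held a region far inside the gene (chr7:143363615-143364515) with peaks in 1 cKO and 5 control lists, at means of 13.3 and 69.3. It passed the filter of 2 lists only through control and so had to differ. It was not called by limma with all libraries, was called in lane 7 alone (adjusted p = 0.0268) and without *Tip60* cKO 4, which holds its only cKO peak (0.00155), and was picked after its values were seen.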
